A study of Homo sapiens with 38 samples.

Results

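The heterogeneous nuclear ribonucleoprotein (hnRNP) genes HNRNPA1, HNRNPA2B1, HNRNPC, HNRNPD, HNRNPDL, HNRNPH1, HNRNPK, HNRNPL, HNRNPM and HNRNPU were followed through every one of their transcripts in nuclear and cytoplasmic RNA. They were chosen by name, as 10 of the 58425 genes that had a matched transcript, by a rule with no threshold on measured values. The tables held 196 of the 339 transcripts annotated for these genes, out of 196040 matched transcripts in all. Of the 196 transcripts, 102 were annotated as protein coding, 56 as retained intron, 31 as targets of nonsense-mediated decay and 7 as coding with no defined reading frame.

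hnRNP proteins bind nascent pre-mRNA in the nucleus, where they influence splice site choice, polyadenylation, export and stability. HNRNPC is a core component of the particle that packages nascent transcripts. HNRNPA1 and HNRNPA2B1 compete with SR proteins at exons, HNRNPH1 binds G-rich runs, HNRNPK binds C-rich RNA through KH domains, HNRNPL binds CA repeats and HNRNPM binds GU-rich RNA. HNRNPD, also called AUF1, binds AU-rich elements and influences mRNA decay, HNRNPDL is its close paralog, and HNRNPU, also called SAF-A, links chromatin to RNA. Several of these genes make isoforms by alternative splicing, and many RNA-binding proteins limit their own level through transcripts that are retained in the nucleus or degraded.

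The study asked how Argonaute proteins, which carry miRNAs, act in the nucleus of HCT116 cells, a human colorectal carcinoma line. Nuclei and cytoplasm were each sequenced from the unedited wild-type line (passages 27, 28 and 29) and from lines edited to lack AGO1 (passages 6, 7 and 8), AGO2 (passages 8, 9 and 10), both of these (AGO1/2, passages 9, 10 and 11) or these and AGO3 (AGO1/2/3, passages 11, 12 and 14). The 30 libraries thus formed 10 groups of 3. Each knockout was 1 line made by CRISPR editing, so that genotype, line and passage cannot be told apart, and p-values measure the spread between passages of a line. All 4 knockouts of a fraction were compared with the same 3 wild-type libraries, and their results are therefore not independent of each other. In bulk RNA, fewer cells with a transcript and less of it per cell cannot be told apart.

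Nuclear libraries held 20431557 to 54097984 estimated reads and cytoplasmic libraries 39476205 to 79731793, the wild type being shallowest in both fractions. AGO1 mRNA fell in the nucleus of the 3 lines labelled as lacking it, by 1.25 (AGO1), 1.90 (AGO1/2) and 1.71 (AGO1/2/3) on the log2 scale. AGO2 mRNA fell by 0.47 in nuclear RNA of the AGO2 line (edgeR, adjusted p = 0.00025), but in the cytoplasm of the line labelled AGO1/2 it was higher than in wild-type cells by 0.31 (adjusted p = 0.0027). In the line labelled AGO1/2/3, AGO3 mRNA was higher by 0.34 in the cytoplasm (adjusted p = 0.0024) and fell by 0.30 in the nucleus (adjusted p = 0.00059), where AGO2 mRNA fell by 0.44 (adjusted p = 0.00016). AGO3 mRNA also fell in the nucleus of lines not edited for AGO3, by 0.35 (AGO1), 0.19 (AGO2) and 0.28 (AGO1/2). In the cytoplasm it was also higher in AGO2 (0.28) and AGO1/2 (0.37). An edit can stop a protein without lowering its mRNA, so these levels do not check the AGO2 and AGO3 edits. The lines AGO1/2 and AGO1/2/3 are named below as labelled. The paper assessed AGO proteins in the knockout lines by Western blot and refers to earlier DNA sequencing of them. The epithelial markers KRT8 (294 to 1265 TPM) and EPCAM (42.1 to 153 TPM) were present in every library, CDH1 ranged from 0.681 to 29.8 TPM, and VIL1 did not exceed 0.0773 TPM. The leukocyte marker PTPRC did not exceed 0.00413 TPM and the endothelial marker PECAM1 did not exceed 0.115 TPM. Of the fibroblast markers, COL1A1 was present in every library (0.633 to 6.21 TPM) and COL1A2 did not exceed 0.0311 TPM.

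Several results turn on which stretch of a gene a transcript carries, and the stretches are shown here from GENCODE release 44 on GRCh38. HNRNPC isoforms of 306 and 293 residues differ by a coding stretch of 39 bases (chr14:21230958-21230996, minus strand), read from HNRNPC-229 and absent from HNRNPC-203. It is in capitals throughout, since each base belongs to the alternative stretch.
HNRNPC 39-base stretch: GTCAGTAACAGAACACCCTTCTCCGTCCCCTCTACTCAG

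The other stretches are the exon-intron junctions that intron-keeping transcripts read through, since the share of such transcripts is measured below. Each is 30 bases long, with 10 exon bases in lower case and 20 intron bases in capitals. In HNRNPH1 (chr5:179620872-179620901, minus strand) the transcript HNRNPH1-234 runs across the donor site of intron 4, which is 1484 bases long. In HNRNPK (chr9:83975496-83975525, minus strand) HNRNPK-203 starts within intron 5 (1489 bases) and runs across its acceptor site. In HNRNPU (chr1:244862441-244862470, minus strand) HNRNPU-217 keeps intron 3 (1986 bases), and in HNRNPA2B1 (chr7:26200552-26200581, minus strand) HNRNPA2B1-204 keeps intron 1 (2839 bases). In HNRNPL (chr19:38840468-38840497, minus strand) HNRNPL-206 keeps intron 7 (111 bases). HNRNPDL has no transcript annotated as retained intron, but its coding transcript HNRNPDL-204 keeps intron 7 of HNRNPDL-206 (1153 bases), which lies after the stop codon (chr4:82426017-82426046, minus strand).
HNRNPH1-234 intron 4 donor: ttcttctcagGTATGTAGTCATGTTTGTTG
HNRNPK-203 intron 5 acceptor: AACGCCAATGACCAATGCAGtacaatgcca
HNRNPU-217 intron 3 donor: cttgatacttGTAAGTGAAGCTGTTTCTCC
HNRNPA2B1-204 intron 1 donor: cgcgatggagGTAACGGGTTTGAAATCAAT
HNRNPL-206 intron 7 donor: gcagaatatgGTGAGGGCAGGGGGTTCCCC
HNRNPDL-204 intron 7 donor: gagaaaacagGTGTGTATAAGAGTACAGGA

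All 10 genes were strongly expressed. Their mean levels over the 30 libraries in TPM, a unit scaled for transcript length, ran from 116 for HNRNPDL to 727 for HNRNPA1 (ENSG00000135486.19, chr12:54280193-54287088, plus strand). In nuclear wild-type RNA HNRNPA1 was first at 655 ± 129 TPM (SD, n = 3), followed by HNRNPH1 (522 ± 108), HNRNPA2B1 (509 ± 117), HNRNPC (450 ± 27.5), HNRNPU (382 ± 79.4), HNRNPK (355 ± 47.5) and HNRNPD (282 ± 42.3). HNRNPL (200 ± 16.6), HNRNPM (185 ± 38.9) and HNRNPDL (139 ± 31.9) came last. In this order HNRNPD and HNRNPL were the only neighbours whose libraries did not overlap, so the order of neighbours within the upper 7 and within the lower 3 was not resolved. Genes further apart could be separate: the lowest nuclear wild-type library of HNRNPA1 (506 TPM) lay above the highest of HNRNPC (470 TPM).

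In cytoplasmic wild-type RNA HNRNPA1 stood further apart, at 945, 962 and 974 TPM, above every library of the gene next in order, HNRNPA2B1 (524, 640 and 464 TPM). HNRNPC (407 ± 22.3 TPM) and HNRNPK (308 ± 30.2) followed, and the next 4, HNRNPD, HNRNPU, HNRNPH1 and HNRNPL, lay between 197 and 246 TPM with overlapping libraries. HNRNPM (154 ± 18.6) and HNRNPDL (113 ± 36.2) were again lowest. HNRNPA1 was highest in all 10 groups. Passage 29 of the wild type stood apart: in the nucleus it was the lowest library for all 10 genes in TPM (506 TPM for HNRNPA1, against 720 and 739). In the cytoplasm it was the lowest for HNRNPA2B1, HNRNPC, HNRNPH1, HNRNPK, HNRNPL, HNRNPM and HNRNPDL (71.7 TPM for HNRNPDL, against 138 and 129). For HNRNPM the margin was narrow (142.5 against 143.7 TPM). Cytoplasmic HNRNPA1 was highest in that passage, and HNRNPD and HNRNPU lay between the other passages.

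**Figure D1:**
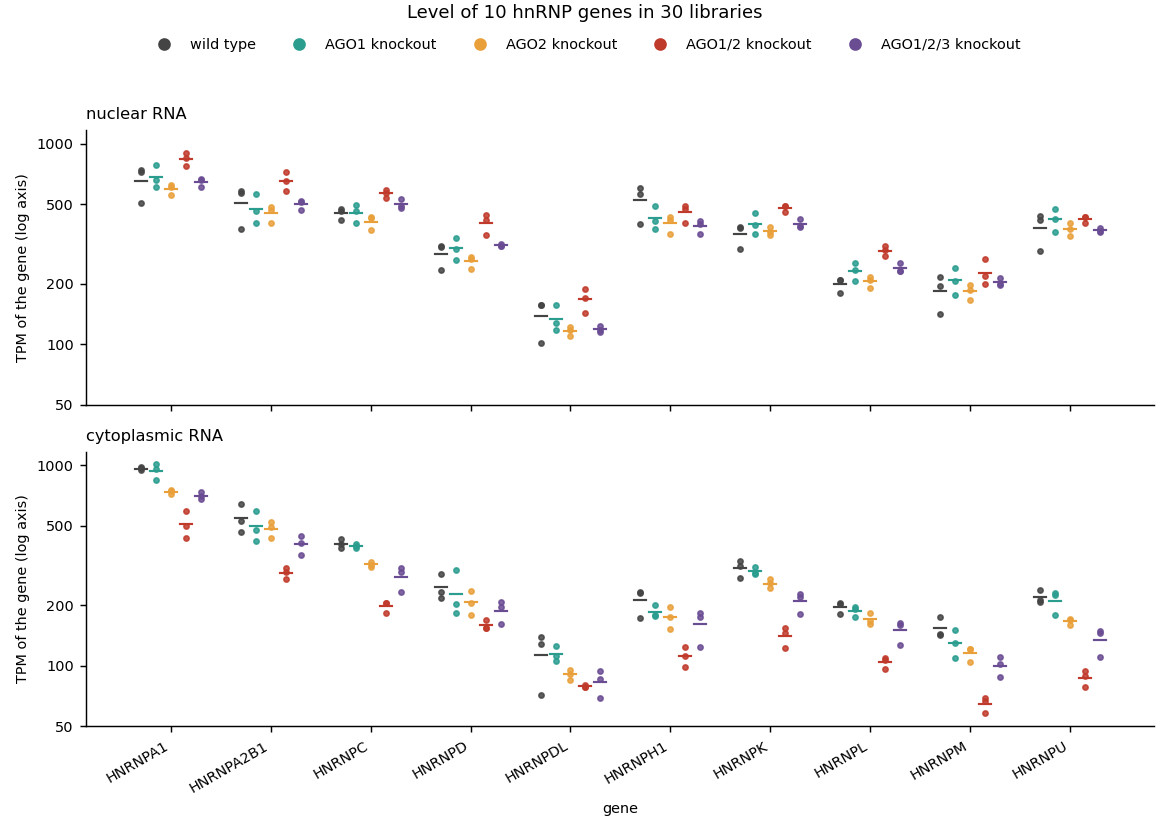
Level of each gene in TPM (log axis) in the 3 libraries of each genotype (points) with the group mean (bar), in nuclear RNA above and cytoplasmic RNA below. HNRNPA1 lies highest in both panels, and in the cytoplasm the libraries labelled AGO1/2 lie lowest for HNRNPA1 (498, 436 and 594 TPM).

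The nuclear and cytoplasmic fractions were compared within each genotype with edgeR's quasi-likelihood test on estimated counts. Its log2 differences are therefore not those of the TPM given beside them. In wild-type cells 6 of the 10 genes passed the threshold (adjusted p up to 0.05), against 70.7% of all genes tested, so the count is near the background. HNRNPU mRNA was higher in the nucleus (437, 417 and 291 TPM in the nucleus, 207, 240 and 212 in the cytoplasm), by 0.60 ± 0.15 (SE) on the log2 scale (adjusted p = 0.0072). HNRNPH1 (ENSG00000169045.19, chr5:179614178-179634784, minus strand) was also higher in the nucleus (563, 604 and 399.5 against 230, 233 and 173 TPM), by 0.47 ± 0.15 (adjusted p = 0.026). For both genes all nuclear libraries lay above all cytoplasmic ones. HNRNPA1 mRNA was lower in the nucleus, by 0.99 ± 0.14 (adjusted p = 0.00043), and its libraries did not overlap.

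The other 3 called genes depended on the scale. HNRNPK, HNRNPL and HNRNPM were lower in the nucleus in edgeR, with log2 differences of -0.50, -0.50 and -0.40, but were at 0.20, 0.02 and 0.25 when log2(TPM + 1) was compared with limma. On that scale the median of all genes was itself 0.33, against -0.02 in edgeR. HNRNPA1, HNRNPH1 and HNRNPU kept their direction on both scales but not their size, at -0.57, 1.29 and 0.78 on log2(TPM + 1). With the passage as a replicate block, which the wild-type libraries supported by their paired deviations, 9 genes were called, adding HNRNPA2B1, HNRNPC and HNRNPDL. The call of HNRNPH1 was lost on leaving out nuclear passage 27, nuclear passage 28 or cytoplasmic passage 29, and that of HNRNPM on leaving out cytoplasmic passage 28.

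When only protein-coding transcripts were summed, a count added after the data were seen, the nuclear excess of HNRNPH1 turned to -0.35 (adjusted p = 0.053). The coding transcripts of HNRNPH1 stood at 130, 129 and 92.0 TPM in the nucleus and at 186, 177 and 144 TPM in the cytoplasm, without overlap. HNRNPC stood at -0.16 for all transcripts (adjusted p = 0.11) and at 0.27 for coding ones (adjusted p = 0.021), and HNRNPM at -0.40 and 0.00085. HNRNPU kept its excess at 0.54.

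In the AGO1 and AGO2 knockouts HNRNPU and HNRNPH1 were higher in the nucleus and HNRNPA1 lower, as in wild-type cells. The log2 differences of HNRNPU were 0.75 and 0.80, those of HNRNPH1 0.55 and 0.48 and those of HNRNPA1 -0.83 and -0.81. In all, 4 members were called in the AGO1 knockout (80.2% of all genes) and 7 in the AGO2 knockout (80.5%), again no more than the background. HNRNPK was called at -0.16 in both, yet stood at 0.42 and 0.51 on log2(TPM + 1) and at 0.14 in both when coding transcripts alone were counted. HNRNPH1 turned to -0.12 and -0.14 with coding transcripts alone. The call of HNRNPK in AGO1 was lost without nuclear passage 7 or 8.

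In the libraries labelled AGO1/2 all 10 genes were called (70.1% of all genes, in either direction). The median log2 difference in edgeR was 0.56 for the members and 0.04 for all genes. All but HNRNPA1 were higher in the nucleus, led by HNRNPU (429, 431 and 400.5 against 88.7, 78.8 and 93.9 TPM, edgeR log2 difference 1.38 ± 0.07, adjusted p = 9.8e-07), HNRNPH1 (0.98 ± 0.09), HNRNPM (0.75 ± 0.07) and HNRNPK (0.73 ± 0.07). On log2(TPM + 1) these genes were at 2.26, 2.02, 1.79 and 1.76, where the median of all genes was 0.55. HNRNPA1 was at -0.25 in edgeR (adjusted p = 0.034) but at 0.73 on log2(TPM + 1) and at 0.04 with coding transcripts alone. The call of HNRNPA1 was lost without nuclear passage 9 or 11, and the calls of HNRNPA2B1 and HNRNPDL were lost on leaving out any of 5 of the 6 libraries. In the libraries labelled AGO1/2/3, 4 genes were called (76.1% of all genes), namely HNRNPU (0.94), HNRNPH1 (0.51) and HNRNPC (0.30) as higher and HNRNPA1 (-0.70) as lower in the nucleus. HNRNPC was no longer called there without nuclear passage 14.

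The contrast between fractions was itself smaller in these lines for transcripts that mark the fractions. MALAT1, a nuclear noncoding RNA, was higher in the nucleus by 3.87 on the log2 scale in wild-type cells, by 2.81 and 2.73 in the AGO1 and AGO2 knockouts, by 2.15 in AGO1/2 and by 2.52 in AGO1/2/3. GAPDH, a cytoplasmic mRNA, had log2 differences of -1.16, -0.77, -0.83, -0.16 and -0.57 in the same order. Its value in AGO1/2 was not called (edgeR, adjusted p = 0.092). In TPM the nuclear means of GAPDH were 1263, 1626, 1593, 2666 and 2018, against 1961, 2021, 1913, 1486 and 1929 in the cytoplasm. On that scale GAPDH was thus higher in the nucleus in AGO1/2, without overlap, and its libraries overlapped in AGO1/2/3. Between nuclear libraries alone, GAPDH was higher than in wild-type cells by 0.60, 0.60, 1.11 and 0.91. The part of this shift in the hnRNP results was not tested.

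**Figure D2:**
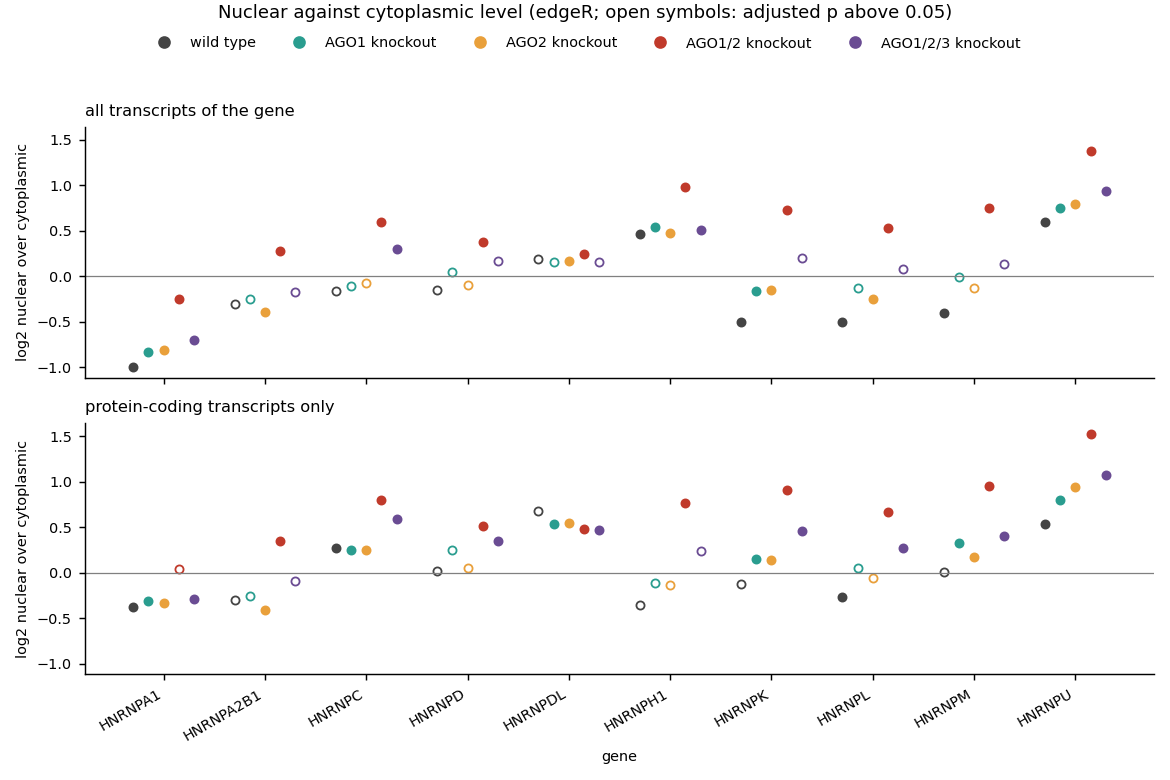
Log2 ratio of the nuclear to the cytoplasmic level from edgeR for each gene and genotype, for all transcripts above and for protein-coding transcripts below (open symbols, adjusted p above 0.05). HNRNPH1 lies above 0 in the upper panel and in wild-type cells at -0.35 in the lower panel, and HNRNPU lies above 0 in both; the lower values of HNRNPK, HNRNPL and HNRNPM in wild-type cells turned positive on log2(TPM + 1).

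Against wild-type cells, nuclear hnRNP mRNA rose or showed no called change in each knockout. HNRNPK, HNRNPL and HNRNPM rose in all 4 lines. HNRNPL (ENSG00000104824.18, chr19:38836370-38852347, minus strand) had 392, 388 and 383 CPM (reads scaled to library size by TMM, within the fraction) in nuclear wild-type libraries. It had 543, 556 and 509 CPM in the AGO1 knockout, 484, 480 and 462 in the AGO2 knockout, 567, 589 and 554 in the libraries labelled AGO1/2 and 509, 529 and 578 in those labelled AGO1/2/3. Every knockout library lay above every wild-type library. The log2 changes were 0.47 ± 0.06 (adjusted p = 6.0e-05), 0.29 ± 0.06 (0.0011), 0.56 ± 0.06 (7.4e-07) and 0.47 ± 0.06 (5.6e-06).

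HNRNPK (ENSG00000165119.22, chr9:83968083-83980631, minus strand) had 738, 729 and 647 CPM in the nuclear wild type and 1063, 1071 and 1041 CPM in the libraries labelled AGO1/2, with no overlap. Its changes were 0.47, 0.35, 0.59 and 0.48 in the order of the lines above, each with an SE of 0.07. HNRNPM (ENSG00000099783.13, chr19:8444767-8489114, plus strand) had 372, 361 and 289 CPM in the wild type and 499, 518 and 475 in AGO1/2, and its changes were 0.47, 0.30, 0.55 and 0.40, each with an SE of 0.09. Passage 29 was the lowest wild-type library for both genes. The change of HNRNPM in the AGO2 knockout was no longer called without passage 8 of that line.

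In all, 6 members rose in the nuclear AGO1 knockout (14.3% of all genes rose), 3 in AGO2 (20.2%), 6 in AGO1/2 (32.9%) and 5 in AGO1/2/3 (29.1%), and none fell. The members beside HNRNPK, HNRNPL and HNRNPM were HNRNPD (0.29, 0.42 and 0.26 in AGO1, AGO1/2 and AGO1/2/3), HNRNPC (0.19, 0.24 and 0.26) and HNRNPA1 (0.28 and 0.36 in AGO1 and AGO1/2). HNRNPA2B1, HNRNPDL, HNRNPH1 and HNRNPU were called in no nuclear comparison, although HNRNPU in the AGO1 knockout was close to the threshold at 0.23 (adjusted p = 0.053). The median change of the 10 genes was 0.26, 0.09, 0.30 and 0.23, and that of all genes -0.03, -0.02, -0.06 and -0.03.

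In AGO1, AGO2 and AGO1/2/3 these nuclear rises were weaker on log2(TPM + 1). In AGO1/2 they were weaker for HNRNPK, HNRNPL and HNRNPM (0.44, 0.55 and 0.31) but larger for HNRNPA1, HNRNPC and HNRNPD (0.37, 0.33 and 0.52). On log2(TPM + 1) the median of all genes was at -0.17, -0.17, -0.07 and -0.16 in the order of the lines above. The genes that edgeR called stayed above 0 there, but limma called a rise for 0, 0, 5 and 1 members, the last being HNRNPL in AGO1/2/3. It also called HNRNPH1 lower in AGO1/2/3 (-0.40, adjusted p = 0.034). In the AGO1 knockout the calls of HNRNPA1 and HNRNPC were lost without passage 6 or passage 7 of that line. With coding transcripts alone the rise of HNRNPC in AGO1/2 became -0.03 and that of HNRNPA1 0.02. Calls were also lost for HNRNPA1 and HNRNPC in AGO1 (0.18 and 0.13, adjusted p = 0.13 and 0.089), HNRNPM in AGO2 (0.20, 0.091) and HNRNPC in AGO1/2/3 (0.07, 0.29). On that scale HNRNPU was called higher in AGO1 (0.31, adjusted p = 0.015) and HNRNPDL lower in AGO1/2/3 (-0.31, adjusted p = 0.026). For HNRNPH1 the edgeR total was at 0.01 and -0.08 in AGO1/2 and AGO1/2/3, neither called. Its coding transcripts rose, from 130, 129 and 92.0 TPM in the wild type to 231, 241 and 198.5 TPM in AGO1/2. In edgeR on counts, not TPM, their log2 changes were 0.55 in AGO1/2 (adjusted p = 0.0008) and 0.41 in AGO1/2/3 (adjusted p = 0.0070).

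Cytoplasmic hnRNP mRNA fell in the libraries labelled AGO1/2 and, for fewer genes, in those labelled AGO1/2/3. HNRNPU (ENSG00000153187.21, chr1:244840638-244864560, minus strand) had 760, 906 and 879 CPM in wild-type cytoplasm, 474, 443 and 462 in AGO1/2 and 691, 677 and 531 in AGO1/2/3. It fell by 0.88 ± 0.11 (adjusted p = 8.8e-06) and by 0.42 ± 0.10 (0.0052), without overlap with the wild type in either line. HNRNPK had 789, 765 and 728 CPM in the wild type, 480, 427 and 468 in AGO1/2 and 655, 644 and 535 in AGO1/2/3, and fell by 0.73 ± 0.08 and 0.32 ± 0.07. HNRNPC (ENSG00000092199.19, chr14:21209136-21269494, minus strand) had 751, 722 and 749 CPM in the wild type and 508, 478 and 471 in AGO1/2, and fell by 0.61 ± 0.08 and, in AGO1/2/3, by 0.29 ± 0.08. For these genes too the libraries of the lines did not overlap those of the wild type.

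In AGO1/2 the other genes that fell were HNRNPM (by 0.69), HNRNPH1 (by 0.59), HNRNPL (by 0.56), HNRNPA1 (by 0.48) and HNRNPA2B1 (by 0.47). That made 8 of 10 members in AGO1/2 (25.4% of all genes fell) and 3 of 10 in AGO1/2/3 (20.0%). HNRNPD was at -0.20 (adjusted p = 0.31) and HNRNPDL at -0.05 (0.81) in AGO1/2. The median change of the members was -0.57 and -0.20, against -0.01 for all genes in both. On log2(TPM + 1) the falls were larger, with 9 and 8 members called and a median of all genes of -0.20 and -0.13.

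No member was called in the cytoplasm of the AGO1 knockout (12.4% of all genes were called in either direction) or the AGO2 knockout (16.1%). In edgeR 0 members passed an unadjusted p of 0.05 in either line, and DESeq2 also called 0. With limma on log2(TPM + 1), 0 members were called in AGO1 and 4 in AGO2, where the median of all genes was -0.08 and -0.13. A p that misses the threshold does not show that the levels were equal.

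**Figure D3:**
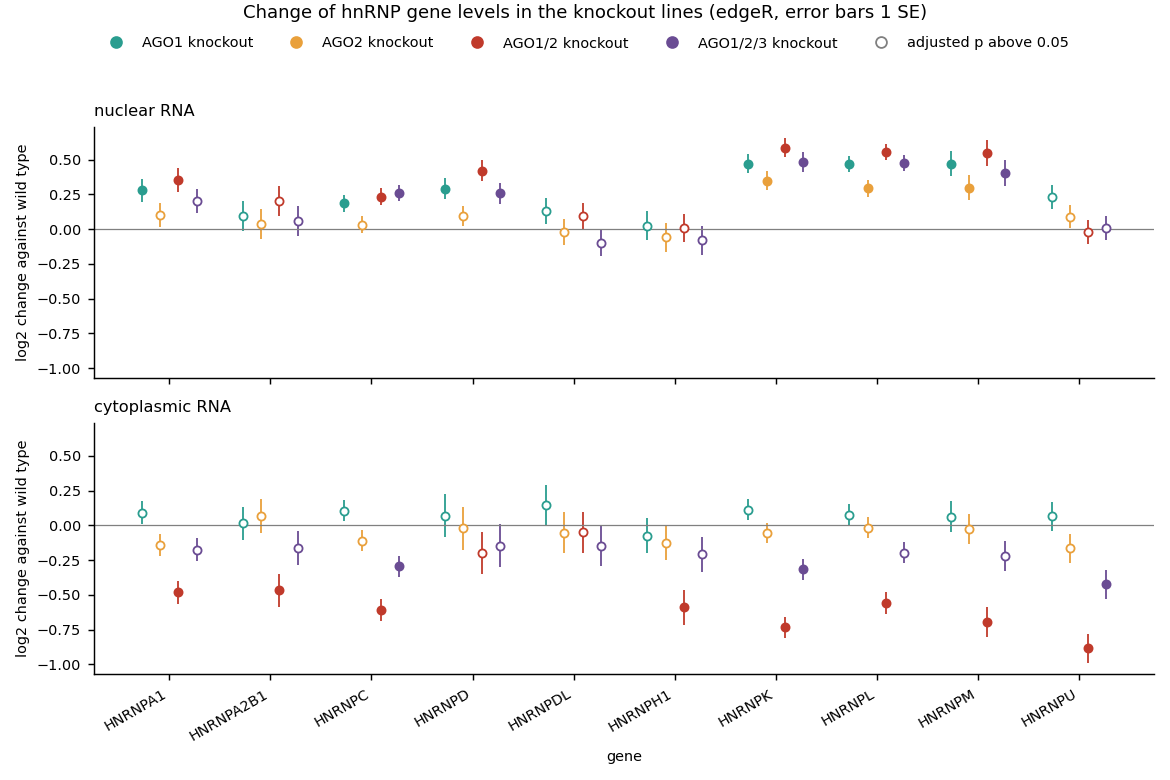
Log2 change of each gene against wild-type cells with its SE, in nuclear RNA above and cytoplasmic RNA below (open symbols, adjusted p above 0.05). HNRNPK, HNRNPL and HNRNPM lie above 0 in the nucleus in all 4 lines, more weakly on log2(TPM + 1), and HNRNPU lies lowest in the cytoplasm of AGO1/2 at -0.88.

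Whether a knockout effect differed between fractions was tested as an interaction term over the 12 libraries of wild type and 1 knockout. In AGO1/2 the effect was higher in the nucleus than in the cytoplasm for 8 of 10 members (13.5% of all genes), and in AGO1/2/3 for 4 (10.3%). In AGO1/2 the differences were 1.23 for HNRNPK, 1.15 for HNRNPM, 1.03 for HNRNPL, 0.77 for HNRNPU, 0.75 for both HNRNPC and HNRNPA1, 0.58 for HNRNPA2B1 and 0.53 for HNRNPD. In AGO1/2/3 they were 0.78 for HNRNPK, 0.65 for HNRNPL, 0.60 for HNRNPM and 0.53 for HNRNPC, and on leaving out nuclear wild-type passage 27 or 28 only 2 of these calls, HNRNPK and HNRNPL, were left. The call of HNRNPM there was lost on leaving out any of 8 of the 12 libraries, and in AGO1/2 those of HNRNPA2B1 and HNRNPD were lost on leaving out any of 8 and any of 5, nuclear wild-type passage 29 among them. GAPDH had differences of 0.99 and 0.65 in the same lines and MALAT1 of -1.72 and -1.29, and the part of that shift in the hnRNP values was not tested.

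In the AGO1 and AGO2 knockouts no member was called for a difference between fractions, against 0.167% and 1.82% of all genes. At an unadjusted p under 0.05 edgeR counted 2 members in each, and DESeq2 called 1 and 2. HNRNPDL was not called in any line, with values of 0.05 in AGO1/2 and 0.03 in AGO1/2/3. HNRNPH1 was at 0.51 in AGO1/2 (adjusted p = 0.060), but at 1.14 with coding transcripts alone (adjusted p = 0.0011). With the passage as a replicate block, a pairing seen in every wild-type passage but not in every knockout passage, it was called (0.52, adjusted p = 0.0005). That fit also called HNRNPK and HNRNPL in AGO1 (0.32 and 0.35, adjusted p = 0.034 and 0.030) and in AGO2 (0.35 and 0.25, adjusted p = 0.0080 and 0.030), and 6 members in AGO1/2/3.

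A wider list of 17 other hnRNP genes moved in the same fractions. In nuclear RNA 8 of the 17 rose in AGO1, 5 in AGO2, 11 in AGO1/2 and 11 in AGO1/2/3, with PCBP1, a poly(C)-binding protein, having the largest rise in each (0.53, 0.41, 0.89 and 0.61). Among all genes 14.3%, 20.2%, 32.9% and 29.1% rose, and on log2(TPM + 1) limma called 1, 2, 12 and 2 of the 17 in either direction. Only HNRNPLL fell, by 0.29 in the AGO2 knockout. In cytoplasmic RNA edgeR called 0 in the AGO1 and AGO2 knockouts, with 0 and 1 at an unadjusted p under 0.05, 0 and 1 called by DESeq2 and 1 and 7 by limma on log2(TPM + 1). In the combined lines 12 fell and 1 rose in AGO1/2 (HNRNPH2 by 0.94, PCBP2 up by 0.25) and 7 fell in AGO1/2/3 (HNRNPAB by 0.42). In wild-type cells 11 of the 17 were lower in the nucleus, where PCBP1 stood at -1.14. The difference between fractions was called for 10 and 7 of the 17 in AGO1/2 and AGO1/2/3, largest for HNRNPH2 (1.25 and 0.71).

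The next question was which kinds of transcript made up these totals. Transcripts annotated as retained intron keep at least part of an intron, have no reading frame and cannot be told from unspliced precursor in these values. Their share of a gene's TPM was tested with limma on the log2 ratio to the gene's other transcripts, and a call needed a shift of 5 percentage points or more beside an adjusted p up to 0.05. HNRNPH1 had the largest such share, at 69.8, 71.3 and 69.4% in nuclear wild-type RNA and 4.56, 4.97 and 2.66% in the cytoplasm. Its log2 ratio differed by 5.83 ± 0.29 (adjusted p = 5.7e-06), and most of the HNRNPH1 TPM in the wild-type nucleus was thus of this kind.

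In the nucleus of wild-type cells HNRNPK followed at 19.5, 18.6 and 18.8%, HNRNPU at 16.9, 18.7 and 17.9%, HNRNPL at 14.5, 14.7 and 15.9%, HNRNPA2B1 at 14.3, 12.8 and 14.4% and HNRNPC at 11.8, 10.2 and 8.54%. HNRNPM (6.96%), HNRNPA1 (5.54%) and HNRNPD (4.43%) had the smallest means. In the cytoplasm none of these genes but HNRNPH1 exceeded 2.30% in a wild-type library. For all 9 genes with such transcripts every nuclear wild-type library lay above every cytoplasmic one. The difference was called for 8 of the 9 in wild-type cells (78.9% of all genes with such a share), HNRNPD being under the 5-point minimum. It was called for 6 in the AGO1 knockout (78.4%; HNRNPC was lost without nuclear passage 6), 5 in AGO2 (75.4%), 2 in AGO1/2 (57.1%) and 5 in AGO1/2/3 (67.4%).

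The nuclear share fell in the knockout lines, most of all in AGO1/2. HNRNPH1 went from 69.8, 71.3 and 69.4% to 63.9, 63.0 and 64.7% in AGO1, 60.6, 60.5 and 65.6% in AGO2, 42.9, 40.2 and 43.1% in AGO1/2 and 51.3, 49.2 and 42.5% in AGO1/2/3. No knockout library reached the wild-type range. The change of the log2 ratio was -0.51 ± 0.14 in AGO2 (adjusted p = 0.030), -1.70 ± 0.14 in AGO1/2 (2.5e-06) and -1.37 ± 0.14 in AGO1/2/3 (3.2e-05).

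HNRNPU went from 16.9, 18.7 and 17.9% to 12.4, 10.9 and 12.5% in AGO1, 11.1, 11.3 and 11.1% in AGO2, 7.12, 7.28 and 7.23% in AGO1/2 and 8.43, 8.56 and 6.84% in AGO1/2/3, again without overlap. HNRNPK went from 19.5, 18.6 and 18.8% to 7.88, 7.45 and 7.98% in AGO1/2 and to 11.2, 10.4 and 8.49% in AGO1/2/3. HNRNPL, HNRNPA2B1 and HNRNPC fell to 6.68, 5.80 and 3.56% in AGO1/2 and to 8.66, 7.20 and 3.91% in AGO1/2/3. In the 4 lines the falls called were 1 (HNRNPU), 3 (HNRNPH1, HNRNPK and HNRNPU), 6 and 6, against 0.865%, 14.4%, 56.9% and 45.3% of all genes tested. The call of HNRNPU in AGO1 was lost on leaving out any of its 6 libraries. In AGO2 the call of HNRNPH1 was lost without wild-type passage 27 or 28 or AGO2 passage 8 or 9, and that of HNRNPK without AGO2 passage 9, which left 1 of 3.

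The fall was general in these libraries, with a median log2 ratio change over all genes of -0.18, -0.35, -0.97 and -0.72, beside -0.41, -0.57, -1.48 and -1.33 for the members. The nuclear libraries with lower shares were also those with higher GAPDH and lower MALAT1, and the part of that shift was not tested. Cytoplasmic shares were called in none of the 4 lines with limma, against 0.413%, 0.712%, 3.24% and 1.08% of all genes in either direction. There 0, 1, 5 and 3 of the 9 genes passed an unadjusted p of 0.05. With 0.5 TPM in place of 0.1 TPM added to each side limma also called 0. Median changes of the cytoplasmic log2 ratio were 0.08, 0.08, 0.43 and 0.22 for the members and 0.09, 0.11, 0.24 and 0.09 for all genes. In cytoplasmic AGO1/2, 0 of the 9 shares were lower than in wild-type cells.

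**Figure D4:**
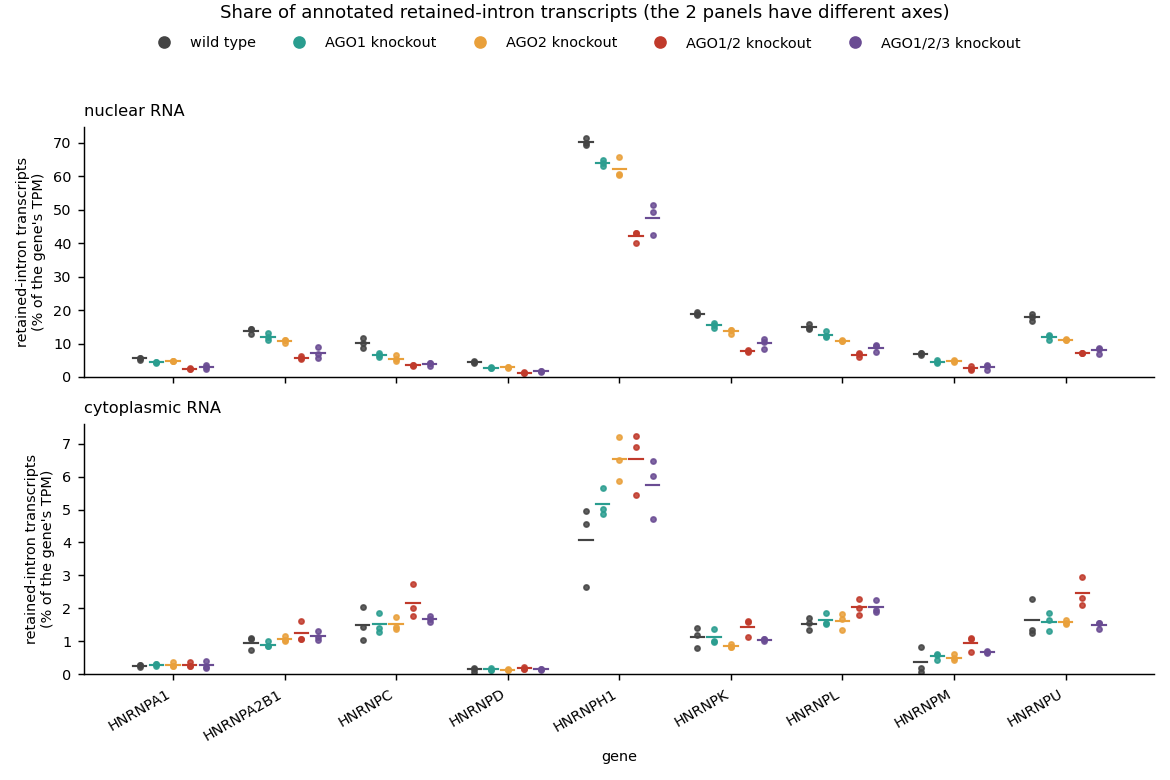
Share of retained-intron transcripts in the TPM of 9 hnRNP genes, per library (points) and group mean (bars), in nuclear RNA above and cytoplasmic RNA below on a different axis. HNRNPH1 in the nucleus ranges from 40.2% in AGO1/2 to 71.3% in wild-type cells, and its cytoplasmic wild-type values are 4.97% or lower.

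Transcripts annotated as targets of nonsense-mediated decay, the pathway that degrades mRNA with an early stop codon, made up 33.6% of HNRNPU, 22.3% of HNRNPA1 and 14.1% of HNRNPDL TPM in nuclear wild-type RNA. For HNRNPA1 the shares were 21.5, 21.5 and 23.7% in the nucleus and 32.9, 33.2 and 31.9% in the cytoplasm. For HNRNPH1 they were 6.68, 6.88 and 6.90% and 14.3, 18.9 and 14.1%. Both were lower in the nucleus, with log2 ratio differences of -0.76 ± 0.18 (adjusted p = 0.019) and -1.34 ± 0.26 (0.0095). With the passage as a replicate block 1 of these 2 calls was left, and the call of HNRNPA1 was lost without passage 27 or 28 of either fraction.

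Over the genotypes the share was called as lower in the nucleus for 2 members in wild-type cells (25.2% of all genes called in either direction), 2 in AGO1 (27.8%), 3 in AGO2 (24.9%), 1 in AGO1/2 (18.1%) and 2 in AGO1/2/3 (22.2%). HNRNPH1 was called in each, and HNRNPU, at 35.0% in the nucleus against 45.2% in the cytoplasm, in the AGO2 knockout. The call of HNRNPU was lost on leaving out any of 5 of the 6 libraries, and in AGO1/2/3 no call was left without nuclear passage 11 or any cytoplasmic library. HNRNPDL had a wide spread, since cytoplasmic wild-type passage 29 stood at 24.9% against 7.77 and 8.01% in the other passages.

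No decay share was called against wild-type cells in any of the 8 knockout comparisons with limma. In the nucleus 0.0515%, 0.206%, 10.8% and 6.62% of all genes were called in the 4 lines in the same order, and in the cytoplasm 0.471%, 0.282%, 1.38% and 0.408%. At an unadjusted p under 0.05 the members counted 2, 0, 5 and 3 in the nucleus and 0, 1, 1 and 1 in the cytoplasm. With 0.5 TPM added to each side limma called 0 in all 8 as well. HNRNPD stood in the nucleus at 4.17, 4.75 and 5.22% in the wild type and at 1.53, 1.71 and 1.89% in AGO1/2, without overlap (limma, adjusted p = 0.0014) but under the 5-point minimum.

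Transcripts with the same coding sequence were then summed into protein isoforms, each given as a share of the gene's protein-coding TPM. HNRNPA1 gave the clearest difference between fractions. Its 320-residue isoform (HNRNPA1-203 and HNRNPA1-209), the main form of the protein, made up 15.5, 17.6 and 15.8% in the nucleus and 2.49, 2.46 and 2.01% in the cytoplasm of wild-type cells. The log2 ratio differed by 3.03 ± 0.26 (limma, adjusted p = 0.00064). The 372-residue isoform HNRNPA1-202 was at 34.3, 36.7 and 37.5% in the nucleus and 35.1, 36.5 and 35.8% in the cytoplasm, with overlapping libraries. The 307-residue isoform HNRNPA1-201 was lower in the nucleus, at 27.7% against 39.4% (-0.77 ± 0.16, adjusted p = 0.013). The most abundant decay transcript of the gene, HNRNPA1-205, also encodes 320 residues, so these shares hold for transcripts annotated as protein coding only.

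For HNRNPH1 the full 449-residue isoform was at 81.7% in the nucleus and 68.1% in the cytoplasm (1.06 ± 0.18, adjusted p = 0.0063), and the 164-residue form HNRNPH1-207 was at 6.69 and 18.7%. HNRNPC isoforms differed little between fractions: the 306-residue form with the 39-base stretch was at 35.4, 34.5 and 36.1% in the nucleus and 42.3, 40.3 and 42.0% in the cytoplasm, and the 293-residue form at 47.8, 48.9 and 50.0% and 45.0, 48.9 and 46.3%. The libraries of the 306-residue form did not overlap, but neither form was called. For HNRNPK the 463-residue and 464-residue forms were at 56.5 and 26.4% in the nucleus, and for HNRNPDL the 301-residue form at 90.4%. The isoforms A2 and B1 of HNRNPA2B1 could not be told apart, since the main transcript HNRNPA2B1-202 is 1711 bases long in the tables and 4106 in the annotation.

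In wild-type cells 4 of 66 member isoforms were called between fractions (27.1% of all isoforms tested). In the knockout lines 7 of 68, 5 of 65, 5 of 66 and 6 of 64 were called in the 4 lines, again in that order, against 29.9%, 25.0%, 15.1% and 21.2%. The 320-residue form of HNRNPA1 was called as higher in the nucleus in all 5 genotypes and HNRNPA1-201 as lower in all 5. For HNRNPL the 456-residue form HNRNPL-210 (16.6% in the nucleus, 28.0% in the cytoplasm) and the 529-residue form HNRNPL-212 (57.9 and 47.4%) were called in AGO1/2, and the 355-residue form of HNRNPD (15.2 and 5.69%) was called in AGO1. In AGO1/2, 2 calls were left without nuclear or cytoplasmic passage 9 or 10 and 3 without cytoplasmic passage 11, and in AGO2, 3 without cytoplasmic passage 8 or 10.

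Against wild-type cells, the nuclear share of the 320-residue form of HNRNPA1 fell in both combined lines. It was 9.06, 9.48 and 9.62% in AGO1/2 (log2 ratio change -0.91 ± 0.15, adjusted p = 0.00096) and 11.7, 10.5 and 9.48% in AGO1/2/3 (-0.73 ± 0.15, 0.0062), below the wild-type libraries of 15.5, 17.6 and 15.8%. The 449-residue form of HNRNPH1 fell from 81.7 to 74.98% in AGO1/2 (adjusted p = 0.028), where the 730-residue form of HNRNPM went from 48.6 to 56.2% (adjusted p = 0.046). That form held 59.2, 50.1 and 59.4% in the 3 libraries, in which HNRNPM-210 was at 0, 14.4 and 0% against 16.8% in the wild type. Shares of a gene sum to a whole, so these values are not independent. In the nucleus 0, 0, 4 and 1 of 67 member isoforms were called, against 0.567%, 2.42%, 17.0% and 11.6% of all isoforms, and at an unadjusted p under 0.05 13 and 12 were counted in AGO1 and AGO2. Of the 4 isoforms called in AGO1/2, 1 was left without wild-type passage 29 or AGO1/2 passage 11, and 2 without wild-type passage 27 or 28 or AGO1/2 passage 9.

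In the cytoplasm 1 of 63 was called in each line (0.544%, 0.717%, 3.10% and 1.79% of all isoforms), and it was HNRNPM-210 each time. This coding transcript of 298 bases encodes 99 residues. It made up 10.3, 9.73 and 12.3% of HNRNPM coding TPM in the wild-type cytoplasm and was listed at 0 in all 12 cytoplasmic knockout libraries. In the nucleus it was at 20.3, 14.2 and 15.9% in the wild type and, as the remaining isoform called in AGO1/2, was listed at 0 in passages 9 and 11 of AGO1/2, while passage 10 had 14.4%. In the other nuclear knockout libraries it lay between 13.1 and 21.3%. HNRNPM-210 is short and shares sequence with longer transcripts of the gene, and whether an exact 0 is a lack of RNA or of assigned reads was not tested.

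Single transcripts were compared last, each against the rest of its gene, in a test added after the data were seen. In wild-type cells 24 of 168 member transcripts differed between fractions (36.1% of all transcripts). HNRNPDL, a gene with no transcript annotated as retained intron, differed in a coding transcript instead. HNRNPDL-204, which keeps the intron after the stop codon shown above, made up 27.1, 29.3 and 34.4% of the gene in the nucleus and 0.675, 0.672 and 0.857% in the cytoplasm (log2 ratio 5.71 ± 0.27, adjusted p = 0.00016). HNRNPDL-206, which splices it out and encodes the same 301 residues, was at 53.3, 52.7 and 36.2% in the nucleus and 86.4, 85.8 and 67.8% in the cytoplasm. Passage 29 was the lowest for HNRNPDL-206 in both fractions.

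In nuclear RNA of the libraries labelled AGO1/2 HNRNPDL-204 fell to 12.1, 11.1 and 15.6% (-1.55 ± 0.17, adjusted p = 7.4e-05) and HNRNPDL-206 rose to 72.4, 73.2 and 68.2% (1.47 ± 0.23, 0.00063). In AGO1/2/3 HNRNPDL-204 was at 20.8, 18.8 and 17.5% (-0.88 ± 0.17, 0.0044). The libraries of both lines lay below all wild-type libraries, while the total of the gene was called in neither line.

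HNRNPC-210, which carries the 39-base stretch, rose in the nucleus of all 4 lines. No HNRNPC protein isoform was called there in any line, so the rise holds for this transcript and does not show more use of the stretch. It made up 9.07, 9.20 and 6.95% of the gene in the wild type, 16.5, 14.0 and 15.9% in AGO1, 14.3, 15.0 and 13.0% in AGO2, 17.8, 19.3 and 16.6% in AGO1/2 and 14.7, 16.7 and 16.4% in AGO1/2/3. No knockout library overlapped the wild type, and the log2 ratio changes were 0.998, 0.85, 1.26 and 1.05, each with an SE of 0.155 (limma, adjusted p = 0.023, 0.019, 0.00014 and 0.0010). The call in AGO1 was lost without passage 6 or 8 of that line, and the call in AGO2 without wild-type passage 29 or AGO2 passage 8 or 9. In the cytoplasm of wild-type cells it was at 16.6, 14.8 and 15.6%, within the range of the nuclear knockout libraries.

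Other transcripts were called in the same libraries. The coding transcripts HNRNPA2B1-202 (77.0 to 85.2%), HNRNPH1-203 (6.20 to 15.1%), HNRNPH1-204 (11.1 to 19.0%), HNRNPK-202 (41.1 to 49.1%) and HNRNPL-212 (45.8 to 53.3%) rose in nuclear RNA of AGO1/2. The retained-intron transcripts HNRNPA2B1-204 (8.11 to 2.93%) and HNRNPH1-234 (15.1 to 7.19%) fell. The counts of called members were 1 of 170 in AGO1 (0.268% of all transcripts), 1 in AGO2 (1.99%), 15 in AGO1/2 (18.4%) and 9 in AGO1/2/3 (12.1%), with 10 rises and 5 falls in AGO1/2. HNRNPU-224, a decay transcript, was lower in the nucleus of wild-type cells, at 9.09% against 18.4%.

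**Figure D5:**
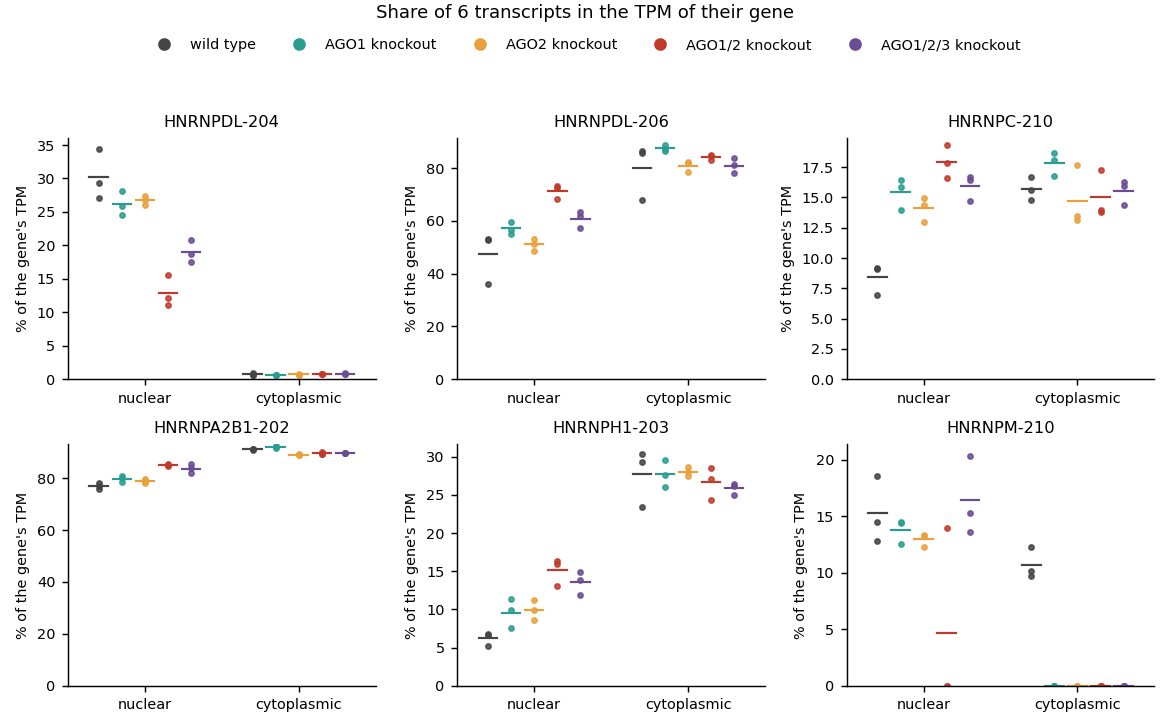
Share of 6 transcripts in the TPM of their gene, per library (points) and group mean (bars), for nuclear and cytoplasmic RNA. HNRNPDL-204 lies between 27.1 and 34.4% in nuclear wild-type RNA and below 1% in the cytoplasm, and HNRNPM-210 is listed at 0 in all 12 cytoplasmic knockout libraries.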

How the data were processed

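Ribosomal RNA-depleted, stranded total RNA libraries were sequenced from nuclear and cytoplasmic fractions, 3 passages for each of 5 genotypes, and grouped by the labels. The authors quantified transcripts with Salmon and deposited, for each transcript, the estimated count of reads and the TPM, which is scaled for transcript length and library total. The submitters' processing notes name Salmon 0.11.0, STAR 2.5.3a, DESeq2 and the build hg38. Transcript identifiers were matched without their version to GENCODE release 44, which left 4361 of 200401 transcripts unmatched and unused. In the 10 genes 159 of the 196 transcripts had the annotated length and 37 another one. Reads from pseudogenes could not be separated with certainty, the largest pseudogene share being 2.25% for HNRNPA1. HNRNPA2B1 and HNRNPU overlap genes on the opposite strand, and the kit marks strand. The eCLIP samples of the series were not analysed here.

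Estimated counts were summed per gene and rounded, filtered with filterByExpr (minimum count 10), scaled by TMM and tested with the quasi-likelihood test of edgeR 4.0.16 in R 4.3.3. Knockouts were compared with wild type over the 15 libraries of a fraction, fractions over 6 libraries, and the difference between fractions over 12. Shares of transcript types, isoforms and transcripts were tested with limma 3.58.1 on log2 ratios after adding 0.1 TPM to each side, for genes with a mean of at least 1 TPM and at least 0.1 TPM on each side. All p-values are two-sided and adjusted by Benjamini-Hochberg over all features tested. DESeq2 1.42.0, RLE scaling, no count filter, fits on the compared libraries alone, limma on log2(TPM + 1), other TPM minimums, 0.5 TPM, no minimum change, a replicate block and leaving out each library were tried. The count of protein-coding transcripts and the test of single transcripts were added after the data were seen. The scripts were tested on simulated data.

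Nuclear and cytoplasmic libraries share passage numbers in their labels. In wild-type cells the deviations of same-numbered libraries correlated by 0.255, 0.242 and 0.537. The main fits nevertheless left them unpaired, and the passage as a replicate block was tried as an alternative. In the knockouts the correlations ranged from -0.01 (AGO1/2/3, passage 11) to 0.29 (AGO1/2, passage 11), and at least 1 per line was under 0.1. Estimated reads per library were as given in the report, so that nuclear wild-type libraries carry the largest counting error. The 10 genes and all lists were chosen with earlier results of these data known. Named were all 10 genes, their 3 most abundant transcripts and isoforms, their most abundant retained-intron and decay transcript and each isoform called at least once, and, of 17 other hnRNP genes, the largest called rise and fall. HNRNPC-203, HNRNPA1-203 and HNRNPA1-209 are named as parts of isoforms.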

Additional observations from a re-analysis of the deposited data

Results flagged for a closer look

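For 12 results the effect of a knockout differed between nuclear and cytoplasmic RNA by an interaction term in edgeR's quasi-likelihood test, each time with the higher value in the nucleus. In the libraries labelled AGO1/2 the differences on the log2 scale were 1.23 ± 0.12 for HNRNPK (SE, adjusted p = 0.00013), 1.15 ± 0.16 for HNRNPM (0.00054), 1.03 ± 0.10 for HNRNPL (0.00011) and 0.77 ± 0.16 for HNRNPU (0.0046). They were 0.754 ± 0.096 for HNRNPC (0.00033), 0.745 ± 0.17 for HNRNPA1 (0.0068), 0.58 ± 0.20 for HNRNPA2B1 (0.047) and 0.53 ± 0.17 for HNRNPD (0.033). In the libraries labelled AGO1/2/3 they were 0.78 ± 0.14 for HNRNPK (0.0046), 0.65 ± 0.12 for HNRNPL (0.0060), 0.60 ± 0.17 for HNRNPM (0.033) and 0.53 ± 0.13 for HNRNPC (0.018). The fraction markers GAPDH and MALAT1 shifted in the same lines, as the report gives, and their part was not tested.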

How the results depend on the processing

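The direction of the nuclear-to-cytoplasmic differences depended on the scale. Among values called on at least 1 of the scales compared, those of opposite sign to edgeR on log2(TPM + 1) with limma were 0.20, 0.42 and 0.51 for HNRNPK in wild type, AGO1 and AGO2, 0.018, 0.30 and 0.28 for HNRNPL, 0.25, 0.67 and 0.65 for HNRNPM, 0.35 for HNRNPC and 0.33 for HNRNPD in AGO2, 0.73 for HNRNPA1 in AGO1/2 and 0.31 for HNRNPA2B1 in AGO1/2/3. With protein-coding transcripts only, they were 0.27, 0.25 and 0.25 for HNRNPC, -0.35, -0.12 and -0.14 for HNRNPH1 and 0.00085, 0.33 and 0.17 for HNRNPM in wild type, AGO1 and AGO2, 0.14 and 0.14 for HNRNPK in AGO1 and AGO2, and 0.041 for HNRNPA1 in AGO1/2. Against wild type, nuclear HNRNPC in AGO1/2 became -0.029 and nuclear HNRNPH1 in AGO1/2/3 0.41. Values called on neither scale also changed sign, among them HNRNPC between fractions in wild type and AGO1 on log2(TPM + 1) (0.15 and 0.19). The cause was not tested.

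Counts of genes called moved most with limma on log2(TPM + 1), to 0 in nuclear AGO1, 0 in nuclear AGO2, 2 in nuclear AGO1/2/3, 4 in cytoplasmic AGO2, 8 in cytoplasmic AGO1/2/3, 3 between fractions in wild type and 9 in AGO1/2/3. DESeq2 called 7 between fractions in AGO1/2/3, and 1 and 2 for the difference between fractions in AGO1 and AGO2. Protein-coding transcripts only gave 8 between fractions in AGO1/2/3, and no count filter gave 7 in AGO1. Leaving out 1 library at a time, the difference between fractions in AGO1/2/3 was called for 2 to 4 genes, the fewest without nuclear wild-type passage 27 or 28.

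Pairing by passage was seen in every wild-type passage but not in every knockout passage. With a replicate block for the passage, 7 genes were called between fractions in AGO1 and 2 each for the difference between fractions in AGO1 and AGO2. The block left 1, 1 and 0 decay shares between fractions in wild type, AGO2 and AGO1/2/3, and 1 isoform in AGO1/2. It changed no other count by over 1.5 times.

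With no minimum change in share, retained-intron shares called became 6 in nuclear AGO2, 1 in cytoplasmic AGO1/2, and 9 between fractions in each of AGO2, AGO1/2 and AGO1/2/3. Decay shares became 1 in nuclear AGO1/2, 1 in nuclear AGO1/2/3, 1 in cytoplasmic AGO1/2 and 2 between fractions in AGO1/2. Isoforms became 1, 16 and 10 in nuclear AGO2, AGO1/2 and AGO1/2/3, 2 and 2 in cytoplasmic AGO1/2 and AGO1/2/3, and 11, 21, 14, 8 and 11 between fractions in wild type and the 4 lines in turn. With 0.5 TPM added, isoforms called were 3 in cytoplasmic AGO1/2, 2 in cytoplasmic AGO1/2/3 and 8 between fractions in AGO2. A gene mean of at least 5 TPM gave 1 in nuclear AGO1, 2 in nuclear AGO1/2/3 and 3 in cytoplasmic AGO1/2, where no gene-mean minimum also gave 3.

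Leaving out 1 library at a time, retained-intron shares called ranged from 0 to 0 in nuclear AGO1 and from 1 to 4 in nuclear AGO2. Decay shares ranged from 0 to 1 in nuclear AGO1/2, from 1 to 2 between fractions in wild type and from 0 to 2 in AGO1/2/3. Isoforms ranged from 1 to 3 in nuclear AGO1/2, from 1 to 2 in nuclear AGO1/2/3, and from 3 to 5 and 2 to 5 between fractions in AGO2 and AGO1/2. The lower depth of nuclear wild-type libraries, 1 line per genotype and shares that Salmon splits between overlapping transcripts limit these results.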

Other observations

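As a description, the gene whose level was most like that of each hnRNP gene was sought among 5889 genes with a mean of at least 10 TPM, by Pearson's r of log2(TPM + 1) over the 10 group means, which share fractions and lines. The matches were NAP1L1 for HNRNPA1 (r = 0.985), GMPR2 for HNRNPA2B1 (0.994), KHDRBS1 for HNRNPC (0.996), CDC6 for HNRNPD (0.995), U2AF1 for HNRNPDL (0.993), MPHOSPH8 for HNRNPH1 (0.999), SNW1 for HNRNPK (0.997), SF3B2 for HNRNPL (0.994), EIF3C for HNRNPM (0.995) and USP19 for HNRNPU (0.998).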
